A study of Mus musculus with 8 samples.

Results

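The CDK inhibitor genes are the 7 genes whose symbols in the count table are Cdkn1a, Cdkn1b, Cdkn1c, Cdkn2a, Cdkn2b, Cdkn2c and Cdkn2d, out of 53700 genes in that table. They were chosen by symbol as the members of the Cip/Kip family (Cdkn1a, Cdkn1b and Cdkn1c) and of the INK4 family (Cdkn2a, Cdkn2b, Cdkn2c and Cdkn2d). Cyclin-dependent kinases (CDKs) drive cells through the division cycle when a cyclin is bound. Cip/Kip proteins bind cyclin-CDK complexes, and INK4 proteins bind CDK4 and CDK6 and keep D-type cyclins from them. Loss of INK4 genes is common in tumors and in cultured lines.

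RNA was sequenced from Lewis lung carcinoma (LLC) cells, a mouse lung tumor line, kept in DMEM with 10% fetal bovine serum. WT cells and cells deficient in FIH (FIH-KO), the oxygen-dependent asparaginyl hydroxylase encoded by Hif1an, were cultured for 16 hours in 21% O2 (normoxia) or 1% O2 (hypoxia). FIH-KO cells were made with CRISPR/Cas9 and a guide against Hif1an followed by single-cell dilution, so the line may be 1 clone, and an effect of the clone cannot be told apart from that of the genotype. Each of the 4 groups had 2 libraries, with total counts from 14519731 to 18177016 per library. The labels do not state that the libraries came from separate cultures, so p-values measure the spread between these libraries, which may be technical.

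The targeted gene was examined first. Hif1an, in CPM (counts scaled to the effective library size), was 84.6 and 82.3 in WT normoxia, 34.8 and 37.7 in FIH-KO normoxia, 90.2 and 84.0 in WT hypoxia, and 45.5 and 51.0 in FIH-KO hypoxia. All FIH-KO libraries were below all WT libraries, and transcripts of the gene were still counted in each of them. The log2 fold change of FIH-KO against WT was -1.20 ± 0.12 (SE) in normoxia (adjusted p = 3.09e-05, edgeR) and -0.85 ± 0.12 in hypoxia (adjusted p = 0.000314, edgeR).

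Cdkn1a, Cdkn1b, Cdkn2c and Cdkn2d passed the filter on low counts and were tested among 13933 genes. The other 3 members, Cdkn1c, Cdkn2a and Cdkn2b, had 0 counts in all 8 libraries. A count of 0 allows up to 3 counts, which is 0.168 to 0.205 CPM in a single library and 0.0229 CPM over the 8 libraries together, for counting error only. No fold change is given for these genes, and 0 counts were also found for 30.3% of the protein-coding genes in the table. Cdkn2a encodes p16Ink4a and p19Arf from separate first exons, and counts per gene do not separate these products.

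Cdkn1a, which encodes the Cip/Kip protein p21 and is a transcriptional target of p53, was the most abundant member per transcript length. It was at 134 and 112 CPM in WT normoxia, 246 and 227 CPM in FIH-KO normoxia, 340 and 275 CPM in WT hypoxia, and 428 and 284 CPM in FIH-KO hypoxia. The WT normoxia libraries were below the other 6, and the hypoxia groups of the 2 genotypes overlapped. In bulk RNA, a change in the number of expressing cells and a change in RNA per cell cannot be told apart.

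In normoxia, FIH-KO against WT cells asked what loss of the hydroxylase changed when oxygen was supplied. Cdkn1a was 1.93-fold higher in FIH-KO cells, a log2 fold change of 0.94 ± 0.18 (SE; adjusted p = 0.00234, edgeR). Of the 4 tested members, Cdkn1a was the 1 called higher, beside 15.2% of tested genes. Lower calls were 0 of these 4, beside 13% of tested genes. The call for Cdkn1a held without each of the 8 libraries, with adjusted p from 0.000151 to 0.0393.

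In hypoxia, the same comparison gave Cdkn1a a log2 fold change of 0.21 ± 0.18 (adjusted p = 0.41, edgeR). This value turned to -0.07 without replicate 1 of FIH-KO hypoxia and passed the threshold without replicate 2 of that group, at 0.48 (adjusted p = 0.0351, edgeR, in a range of 0.0351 to 0.862 over the alternatives). The member called higher in hypoxia was Cdkn2c, 1 of 4 tested, beside 14.1% of tested genes, and 0 members were called lower, beside 13.9%.

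Hypoxia against normoxia asked how each genotype differed between oxygen levels. In WT cells, Cdkn1a was 2.5-fold higher in hypoxia, a log2 fold change of 1.32 ± 0.18 (adjusted p = 0.000263, edgeR), and this call held without each library. In WT cells 2 of the 4 tested members were called higher, beside 16.9% of tested genes, and 1 was called lower, beside 15.5%. In FIH-KO cells, the Cdkn1a log2 fold change was 0.59 ± 0.18 (adjusted p = 0.039, edgeR). That call was lost with only the 4 FIH-KO libraries in the fit (0.62, adjusted p = 0.0698, edgeR), and without replicate 1 of FIH-KO hypoxia (0.29, adjusted p = 0.244), of the FIH-KO normoxia libraries either replicate 1 (0.66, adjusted p = 0.1) or replicate 2 (0.55, adjusted p = 0.146), and in WT hypoxia replicate 2 (0.59, adjusted p = 0.0504). Over all alternatives this adjusted p ran from 7.74e-05 to 0.244. In FIH-KO cells 1 of the 4 tested members was called higher, beside 8.84% of tested genes, and 0 were called lower, beside 8%.

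These comparisons share libraries, and a pass in one with a miss in another does not show that they differ, so the difference itself was tested. The effect of FIH-KO on Cdkn1a in hypoxia minus that in normoxia was -0.73 ± 0.25 on the log2 scale (unadjusted p = 0.0121, adjusted p = 0.591, edgeR). For this difference 0 of the 4 tested members and 0% of tested genes were called by edgeR. By unadjusted p, 925 genes, 6.64% of those tested, were under 0.05 in edgeR, and DESeq2 called 37 genes by adjusted p. The same difference was -0.29 ± 0.23 for Cdkn1b (adjusted p = 0.827, edgeR), 0.84 ± 0.43 for Cdkn2c (unadjusted p = 0.0775, adjusted p = 0.779) and 0.24 ± 0.34 for Cdkn2d (adjusted p = 0.926). Single libraries moved these values. For Cdkn1a the difference was -0.47 without replicate 2 of FIH-KO hypoxia (adjusted p = 0.616, edgeR) and -0.99 without replicate 1 of that group (adjusted p = 0.0501). It moved to 0.0579 for Cdkn1b without replicate 1 of FIH-KO normoxia, and to 0.12 for Cdkn2c and -0.0528 for Cdkn2d without replicate 2 of FIH-KO hypoxia, while Cdkn2c was at 1.39 (adjusted p = 0.0583) without replicate 1 of that group. For Cdkn2d the value was 0.0029 without replicate 1 of WT hypoxia. Without a filter on low counts, edgeR called the Cdkn1a difference (-0.72, adjusted p = 0.0158, in a range of 0.0158 to 1 over the alternatives).

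**Figure D1:**
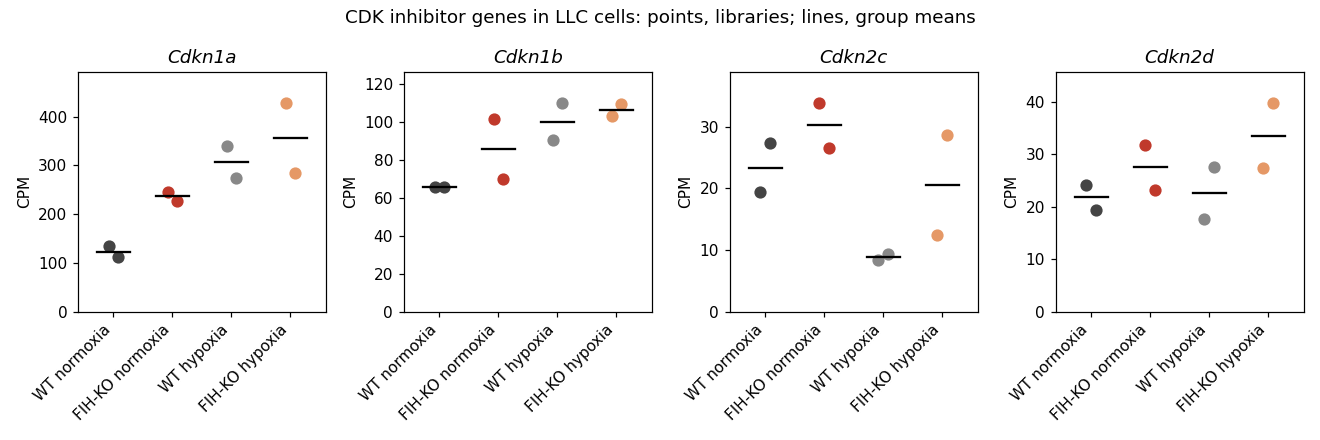
CPM of the 4 expressed CDK inhibitor genes (y axes, linear, from 0) in each group (x axes), with points for libraries and lines for the mean of 2 libraries. Cdkn1a was lowest in the WT normoxia libraries, at 134 and 112 CPM, and the FIH-KO hypoxia libraries of Cdkn2c lay apart, at 12.5 and 28.6 CPM.

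Cdkn1b encodes p27, a Cip/Kip inhibitor whose protein level is largely set by degradation. It was at 65.9 and 65.6 CPM in WT normoxia, 102 and 70.0 CPM in FIH-KO normoxia, 90.4 and 110.1 CPM in WT hypoxia, and 103 and 109.7 CPM in FIH-KO hypoxia. WT normoxia was lowest, FIH-KO normoxia overlapped WT hypoxia, and the hypoxia groups overlapped. Hypoxia against normoxia in WT cells was called, at 0.61 ± 0.16 (adjusted p = 0.0131, edgeR).

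The WT call for Cdkn1b was lost without replicate 2 of WT hypoxia (0.45, adjusted p = 0.122, edgeR), replicate 1 of WT normoxia (0.57, adjusted p = 0.0921) or replicate 2 of WT normoxia (0.57, adjusted p = 0.102). FIH-KO against WT in normoxia gave 0.38 ± 0.16 (adjusted p = 0.0962, edgeR), and passed without replicate 2 of FIH-KO normoxia (0.60, adjusted p = 0.0123), but was 0.0679 (adjusted p = 0.809) without replicate 1 of that group. In hypoxia the value was 0.09 ± 0.16 (adjusted p = 0.717, edgeR), and -0.0132 without replicate 1 of WT hypoxia. Hypoxia against normoxia in FIH-KO cells gave 0.31 ± 0.16 for Cdkn1b (adjusted p = 0.205, edgeR), and passed without replicate 1 of FIH-KO normoxia (0.63, adjusted p = 0.0299), but was 0.091 (adjusted p = 0.751) without replicate 2 of that group. Over all alternatives the adjusted p of Cdkn1b ran from 0.000211 to 0.122 for hypoxia in WT, from 0.0123 to 0.809 for FIH-KO in normoxia and from 0.0299 to 0.751 for hypoxia in FIH-KO (edgeR and DESeq2).

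Cdkn2c encodes p18, an INK4 inhibitor of CDK4 and CDK6. It was at 19.4 and 27.3 CPM in WT normoxia, 33.8 and 26.6 CPM in FIH-KO normoxia, 8.46 and 9.35 CPM in WT hypoxia, and 12.5 and 28.6 CPM in FIH-KO hypoxia. Both WT hypoxia libraries were below the other 6, and the FIH-KO hypoxia libraries were far apart. In WT cells the gene fell by 1.39 ± 0.32 on the log2 scale in hypoxia (adjusted p = 0.006, edgeR), to 38.1% of the normoxia level.

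The fall of Cdkn2c in WT cells missed the threshold without replicate 1 of WT hypoxia (-1.36, adjusted p = 0.0514, edgeR) or replicate 2 of WT normoxia (-1.16, adjusted p = 0.0571). FIH-KO against WT in hypoxia gave 1.21 ± 0.32 (adjusted p = 0.0148, edgeR), and this call was lost without some single libraries. Without replicate 2 of FIH-KO hypoxia it was 0.49 (adjusted p = 0.172), without replicate 1 of WT hypoxia 1.17 (adjusted p = 0.0951), and without replicate 2 of WT hypoxia 1.28 (adjusted p = 0.0666). In FIH-KO cells hypoxia against normoxia gave -0.56 ± 0.30 for Cdkn2c (adjusted p = 0.231, edgeR), and passed without replicate 2 of FIH-KO hypoxia (-1.28, adjusted p = 0.00305), but was -0.0496 (adjusted p = 0.914) without replicate 1 of that group. FIH-KO against WT in normoxia gave 0.37 ± 0.30 (adjusted p = 0.387, edgeR). Over all alternatives the adjusted p of Cdkn2c ran from 1.46e-11 to 0.0571 for hypoxia in WT, from 4.78e-09 to 0.172 for FIH-KO in hypoxia and from 0.00305 to 0.914 for hypoxia in FIH-KO (edgeR and DESeq2).

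Cdkn2d encodes p19Ink4d, another INK4 inhibitor of CDK4 and CDK6. It was at 24.2 and 19.4 CPM in WT normoxia, 31.8 and 23.2 CPM in FIH-KO normoxia, 17.6 and 27.6 CPM in WT hypoxia, and 27.4 and 39.8 CPM in FIH-KO hypoxia. Each group overlapped at least 1 other, and no comparison of Cdkn2d passed the threshold. Its largest log2 fold change was 0.57 ± 0.24, for FIH-KO against WT in hypoxia (adjusted p = 0.0974, edgeR), which passed without replicate 1 of FIH-KO hypoxia (0.86, adjusted p = 0.0231) or replicate 2 of WT hypoxia (0.93, adjusted p = 0.042), in a range of 0.00392 to 0.47 over all alternatives. Without replicate 2 of FIH-KO hypoxia it was 0.285 (adjusted p = 0.47, edgeR), and without replicate 1 of WT hypoxia 0.31 (adjusted p = 0.465). For Cdkn2d, FIH-KO against WT in normoxia gave 0.34 ± 0.24, and the change with hypoxia was 0.05 ± 0.24 for WT cells and 0.29 ± 0.24 for FIH-KO cells. The change with hypoxia turned to -0.31 in WT cells without replicate 2 of WT hypoxia, and to -0.0118 in FIH-KO cells without replicate 2 of FIH-KO hypoxia.

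**Figure D2:**
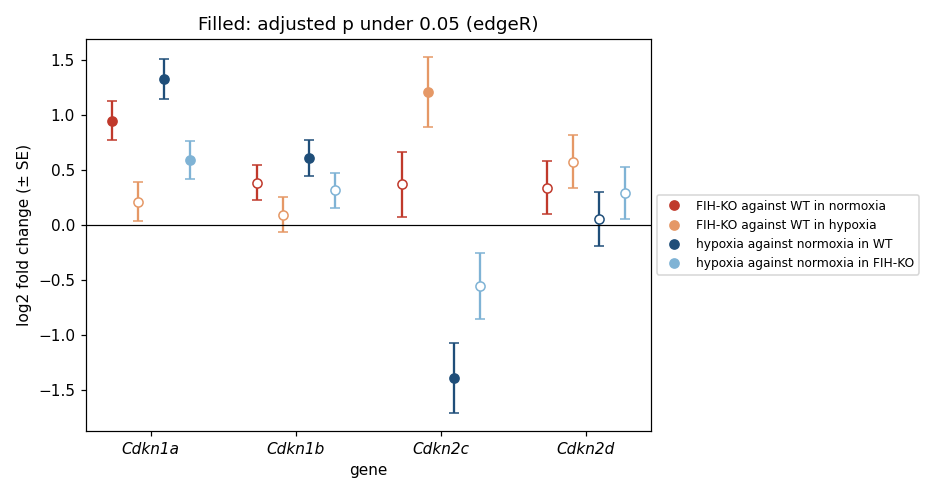
Log2 fold change (y axis) of each expressed CDK inhibitor gene (x axis) in 4 comparisons, with bars of 1 SE and filled points where the edgeR adjusted p was under 0.05. Cdkn1a was at 0.94 for FIH-KO against WT in normoxia and Cdkn2c at -1.39 for hypoxia against normoxia in WT.

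Levels were compared between genes per length, as TPM (counts divided by gene length and scaled to a common library sum). In WT normoxia the mean was 97.3 ± 11.2 TPM (SD, n = 2) for Cdkn1a, 69.1 ± 0.25 for Cdkn1b, 62.7 ± 9.45 for Cdkn2d and 17.6 ± 4.32 for Cdkn2c. In FIH-KO hypoxia it was 279.5 ± 72.0 TPM for Cdkn1a, 112 ± 7.89 for Cdkn1b, 96.7 ± 27.96 for Cdkn2d and 15.5 ± 9.01 for Cdkn2c. The order of means was the same in all 4 groups, with the libraries of Cdkn1b and Cdkn2d overlapping in every group but WT hypoxia. Cdkn1a made up 40.8% and 38.0% of the summed TPM of the 7 genes in WT normoxia, 46.5% and 52.9% in FIH-KO normoxia, 63.9% and 51.8% in WT hypoxia, and 63.2% and 47.2% in FIH-KO hypoxia. The WT normoxia libraries were below the other 6, and the other groups overlapped.

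Other genes around CDK activity were taken from lists. Of 15 tested cyclins and CDKs, 1 was called higher and 5 lower in FIH-KO normoxia, beside 15.2% higher and 13% lower over all tested genes, with a median log2 fold change of -0.21 beside -0.00. Cdk6, a partner of D-type cyclins, was at -0.64 (adjusted p = 0.0046, edgeR) and Ccna2 at -0.92 (adjusted p = 0.0027), and Ccnd3 was at 0.40 (adjusted p = 0.012). Cdk2 (-0.25), Cdk4 (-0.09), Ccnd1 (0.24) and Ccne1 (0.10) did not pass. Of 29 tested p53 genes other than Cdkn1a, 15 were called higher and 0 lower, beside the same shares, with a median of 0.53. Btg2 was at 2.21, Trp53inp1 at 2.18 and Mdm2, the ligase that degrades p53, at 0.53, while Trp53 itself was at -0.10 (adjusted p = 0.69, edgeR). In hypoxia 9 of these 29 genes were called higher in FIH-KO cells and 2 lower, beside 14.1% and 13.9% of all tested genes. Hypoxia against normoxia gave 10 higher and 5 lower in WT cells, beside 16.9% and 15.5%, and 3 higher and 3 lower in FIH-KO cells, which is near the 8.84% and 8% over all tested genes.

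Genes that act on the members were described in the same comparison, FIH-KO against WT in normoxia, where 15.2% of all tested genes were called higher and 13% lower. Of 25 tested transcriptional regulators of CDK inhibitor genes, 12 were called higher and 6 lower, with a median of 0.35. For FIH-KO against WT in hypoxia, 4 of them were called higher and 5 lower (median -0.08), beside 14.1% and 13.9% of all tested genes. Myc, which represses Cdkn1a, was at -1.04 in normoxia (adjusted p = 0.0197, edgeR). In hypoxia Myc was at -1.47 for FIH-KO against WT (adjusted p = 0.00316, edgeR). With hypoxia Myc rose by 2.07 in WT cells (adjusted p = 0.000384, edgeR) and 1.65 in FIH-KO cells (adjusted p = 0.00322) on the log2 scale. The part of Myc in the level of Cdkn1a was not tested. Klf4, an activator of Cdkn1a, was at 1.22 (adjusted p = 0.0205) in normoxia and 0.08 in hypoxia for FIH-KO against WT, and at 2.45 and 1.31 for the change with hypoxia in WT and FIH-KO cells. Tbx3, a repressor of Cdkn2a and its product p19Arf, was at -1.77 (adjusted p = 0.00056), Sp3 at 0.91 (adjusted p = 0.00035) and Bmi1, a Polycomb repressor of the Cdkn2a locus, at 0.39 (adjusted p = 0.018), while Zbtb17 (-0.38) and Hif1a (-0.21) did not pass. Of 18 tested genes for turnover of the inhibitor proteins, 0 were called higher and 7 lower (median -0.26), with Skp2, which targets p27 for degradation, at -0.59 (adjusted p = 0.011, edgeR) and its cofactor Cks1b at -0.71 (adjusted p = 0.0014), and Psme3 at -0.67 (adjusted p = 0.0015). Of 18 tested RB and E2F genes, 2 were called higher and 7 lower (median -0.27), with Rb1 at 0.62 (adjusted p = 0.018, edgeR), E2f1 at 0.48, E2f4 at -0.84 and E2f5 at -0.95. Of 15 tested other CDK inhibitors and related genes, 2 were called higher, Spdya (2.28) and Cdk2ap2 (0.59), and 3 lower, Cdc25a, a phosphatase that activates CDKs (-1.02), Cdkn2aipnl (-0.72) and Cdk2ap1 (-0.53). The rest did not pass, from -0.27 for Cdkn3 to 0.76 for Cables1, with Cdc25c at -0.02, Cdc25b at 0.04, Cdk5rap3 at 0.09, Cdkn2aip at 0.10, Pkmyt1 at 0.11, Cables2 at 0.24, Wee1 at 0.28 and Cdk5rap1 at 0.37. The median of that list was 0.10, and its counts were near the shares over all tested genes.

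The genome around the members with 0 counts was read for its counts. Cdkn2a lies at chr4:89192708-89212890 and Cdkn2b at chr4:89223204-89229276 (GRCm39, minus strand). Mtap, their neighbour and a methionine salvage enzyme, had 1884 to 3845 counts per library, and was at -0.48 for FIH-KO against WT in normoxia (adjusted p = 0.0077, edgeR). Around Cdkn2a and Cdkn2b, Gm12606 had 8 counts in all, Tgif2-ps1 and Gm12608 1 each, Dmrta1 2 and Gm12610 0. A count of 0 does not tell an untranscribed gene from a deleted one, and the presence of these genes was not tested. Of 10 listed genes of the locus, Cdkn2a and Cdkn2b included, 4 passed the filter. Of these 4, 1 was called higher, Hacd4 at 1.75, and 1 lower, beside 15.2% and 13% of all tested genes. Cdkn1c, at chr7:143012069-143014806, is an imprinted gene. Among 20 measured genes listed for its domain and the region beside it, H19 and Igf2 included, 10 passed the filter. Of these, 2 were called higher and 1 lower for FIH-KO against WT in normoxia, near those shares. In hypoxia, 2 were called higher and 4 lower in FIH-KO cells, beside 14.1% and 13.9%. With hypoxia, 4 were called higher and 2 lower in WT cells, beside 16.9% and 15.5%. In FIH-KO cells 3 were called higher and 0 lower with hypoxia, beside 8.84% and 8%. Kcnq1ot1, the noncoding RNA of that domain, was at 2.96 and 3.14 CPM in WT normoxia, 1.67 and 2.41 in FIH-KO normoxia, 12.9 and 31.2 in WT hypoxia, and 2.81 and 5.79 in FIH-KO hypoxia. It was highest in the WT hypoxia libraries, while Cdkn1c was at 0 in all groups. Phlda2 had at most 7 counts, and Tssc4 was at -0.68, Cd81 at 0.48 and Tspan32 at 3.62 for FIH-KO against WT in normoxia. Of annotated genes overlapping tested members on the opposite strand, 1700023B13Rik within Cdkn1a had 14 counts in all and Gm44238 across Cdkn1b had 0.

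Identity of the line was checked on fixed markers. Epcam, Nkx2-1 and Sftpc had 0 counts in all libraries, Cdh1 had at most 1 per library (4 in all) and Krt7 at most 12 (22 in all), while the keratin Krt8 was at 104 to 332 CPM and the mesenchymal marker Vim reached 5314 CPM. Of 6 tested epithelial and mesenchymal markers, 4 were called higher in FIH-KO normoxia, with Krt8 at 1.02 and Fn1 at 1.68, and 0 lower, beside 15.2% and 13% of all tested genes. The 12 markers of other cell types summed to 7.71 and 6.10 CPM in WT normoxia, 20.8 and 58.3 in FIH-KO normoxia, 4.88 and 4.16 in WT hypoxia, and 4.68 and 14.0 in FIH-KO hypoxia. The sum was highest in FIH-KO normoxia, where Acta2 was the most abundant, at 11.97 and 46.1 CPM, and Cd3e, Adgre1, Hbb-bs and Alb were at 0 in all libraries. Of 5 tested markers of this list, 2 were called higher in FIH-KO normoxia, Acta2 at 3.10 and Lyz2 at 3.74 on the log2 scale, and 0 lower, beside the same shares. In hypoxia 2 were called higher for FIH-KO against WT, Lyz2 at 3.75 and Acta2 at 2.96 (adjusted p = 0.001 and 0.0498, edgeR), and 1 lower, the endothelial cadherin Cdh5 at -2.62 (adjusted p = 0.00507), beside 14.1% and 13.9%. With hypoxia Cdh5 was called higher in WT cells (4.01, adjusted p = 0.00102, edgeR), and Acta2 lower in WT (-3.29, adjusted p = 0.025) and in FIH-KO cells (-3.43, adjusted p = 0.00404). These levels were low, with Cdh5 at 1.96 and 1.23 CPM in WT hypoxia and Lyz2 at 1.87 and 4.95 CPM in FIH-KO hypoxia. The other immune and endothelial markers of the list did not pass the filter, with at most 8 counts per library for Pecam1 and 3 for Ptprc. The stromal markers Pdgfrb and Dcn were not called in these comparisons. The part of these marker genes in the results on the CDK inhibitor genes was not tested.

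Patterns most like each tested member were found among 10576 genes by Pearson correlation of log2 CPM over the 8 libraries, which share the 4 groups. They were Cxcl1 (0.98), Lemd2 (0.98) and Klf4 (0.98) for Cdkn1a, and Asb1 (0.99), Zmym6 (0.98) and Mfap1a (0.97) for Cdkn1b. For Cdkn2c they were Arhgef12 (0.99), Nptxr (0.98) and Arpc3 (0.98), and for Cdkn2d AW554918 (0.97), Hsf2 (0.95) and Pfkfb2 (0.94).

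Promoter windows from RefSeq (GRCm38.p6), from 250 bases before to 50 after a start, were matched for 6 of the 7 members, with 9 windows, and each was located by exact match in GRCm39. They were searched on both strands for ACGTG or GCGTG, the core of hypoxia response elements, found in 7 of 9 windows beside 43.8% of all 32851 windows. CACGTG, which contains ACGTG, was in 1 of the 9, beside 7.15% of all. The p53 response element was added after the windows had been read. Matched exactly to its consensus, without a spacer between the half-sites, it was in 0 of the 9 windows, beside 0.00913% of all windows. With a spacer of up to 13 bases it was in 1, beside 0.0731% of all windows. With 1 departure from the consensus allowed and no spacer, it was also in 1 of the 9, beside 0.0883% of all windows. The windows of Cdkn1a, the member called in most comparisons, are shown 5′ to 3′ on the plus strand, at chr17:29309703-29310002 and chr17:29312493-29312792, with the exact match to the p53 response element, spacer included, in capitals in the first and the hypoxia core in capitals in the other.
Cdkn1a upstream start: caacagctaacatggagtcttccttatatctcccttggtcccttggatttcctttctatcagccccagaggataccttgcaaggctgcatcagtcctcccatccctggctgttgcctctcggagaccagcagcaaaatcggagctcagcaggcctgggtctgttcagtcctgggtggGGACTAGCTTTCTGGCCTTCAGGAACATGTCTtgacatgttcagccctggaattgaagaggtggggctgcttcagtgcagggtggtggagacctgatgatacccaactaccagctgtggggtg
Cdkn1a downstream start: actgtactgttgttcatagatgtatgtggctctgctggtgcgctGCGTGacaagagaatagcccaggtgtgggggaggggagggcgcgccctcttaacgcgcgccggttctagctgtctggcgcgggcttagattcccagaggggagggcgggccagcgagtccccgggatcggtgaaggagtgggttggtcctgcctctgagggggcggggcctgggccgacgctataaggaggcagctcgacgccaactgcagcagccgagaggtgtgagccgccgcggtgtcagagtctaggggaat
The exact match in the upstream window runs from base 178 to base 209, and the stretch without a spacer that departs at 1 base runs from base 200 to base 219, so they share a half-site. A match is a description of letters, and binding was not measured.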

How the data were processed

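RNA of 8 libraries was sequenced from a stranded kit. The authors deposited raw counts per gene; per the methods, reads were aligned to GRCm39 with STAR and counted per gene with HTSeq (the processing notes also name GRCm38). The annotation release and strand setting are not stated, so reads of overlapping antisense genes may not be separated. Groups of 2 libraries were taken from the sample labels. Counts were fitted with edgeR 4.0.16 in R 4.3.3 (TMM factors from 0.983 to 1.02, filterByExpr by group, glmQLFit and glmQLFTest with 1 mean per group over all 8 libraries), with Benjamini-Hochberg adjustment over 13933 genes and a threshold of 0.05. TPM used union exon lengths of GENCODE genes on GRCm39, where 98.0% of identifiers were found. Tables and plots used Python 3.11.15, pandas 2.3.3 and matplotlib 3.10.9. Alternatives were DESeq2 1.42.0, other normalizations and filters, only the libraries compared, a replicate block, each library left out, and transcript length. The fits were tested on simulated data. Named genes were the members, Hif1an, fixed regulators and cell type markers, the 3 genes most correlated with each tested member, and the 2 highest and 2 lowest called genes of each list in FIH-KO against WT in normoxia. The markers given values and the genes overlapping members were picked after their values were seen. Members and lists were chosen with earlier results of these data known. The p53 motif and the counts over all genes under each alternative were added after seeing the data.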

Additional observations from a re-analysis of the deposited data

How the results depend on the processing

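Over the settings that keep all libraries of a comparison, other than the minimum counts added later, 112 of 112 log2 fold changes of the 4 tested CDK inhibitor genes in the 4 comparisons kept their direction and 108 also their side of the threshold. With a library left out, where a lone library is assumed to vary like the other groups, 123 of 128 kept their direction and 105 also their side.

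Without a filter on low counts, 2 members were called for FIH-KO against WT in normoxia (Cdkn1b added, 0.40), 2 in hypoxia (Cdkn2d added, 0.61), 2 for hypoxia against normoxia in FIH-KO (Cdkn2c added, -0.55) and 1 for the difference between oxygen levels (Cdkn1a, -0.72). Other minimum counts were tried after seeing the data. The prior degrees of freedom of edgeR, which set how far a gene's spread is drawn to the trend over genes, were 8.18 with the filter, 9.08, 10.7, 14.4 and 20.5 at minimum total counts of 20, 10, 5 and 2, and infinite at 1, where the trend replaces a gene's own spread. The genes fitted also rose, from 13933 to 25720. At a minimum of 2 the adjusted p was 0.117 for Cdkn1b in normoxia, 0.215 for Cdkn2c, 0.509 for the Cdkn1a difference and 0.0407 for Cdkn2d (0.63), so the Cdkn2d call was already added there. Between the filter and a minimum of 1, the quasi-dispersion went from 1.2 to 0.85 for Cdkn1b, 2.43 to 0.899 for Cdkn2c, 1.74 to 0.898 for Cdkn2d and 1.53 to 0.769 for Cdkn1a, whose adjusted p in normoxia went from 0.00234 to 2.48e-12 (edgeR, range over alternatives 2.48e-12 to 0.0393). With only the 4 FIH-KO libraries, 0 members and 1289 genes were called for hypoxia against normoxia, and Cdkn1a was at 0.62.

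Counts over all tested genes for the difference were 0 in the main setting, 37 with DESeq2, 143 without a filter and 5 with the replicate block. The labels do not state whether libraries of the same replicate number were paired. Correlations of replicate differences between groups ran from -0.0104 to 0.193, the highest between WT hypoxia and FIH-KO hypoxia. Cdkn1a was higher in replicate 1 than in replicate 2 in every group. With the replicate block, Cdkn1a was at 0.95 for FIH-KO against WT in normoxia (adjusted p = 0.000149, edgeR). It was at 0.56 for hypoxia against normoxia in FIH-KO (adjusted p = 0.00802, edgeR). The count of members called with the block was 1, 1, 3, 1 and 0 over the 5 comparisons.

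For FIH-KO against WT in normoxia, leaving out each library gave 1 to 2 members and 1735 to 4672 genes called, with log2 values of 0.80 to 1.05 for Cdkn1a, 0.0679 to 0.60 for Cdkn1b, 0.12 to 0.61 for Cdkn2c and 0.0719 to 0.52 for Cdkn2d. For FIH-KO against WT in hypoxia, leaving out each library gave 0 to 2 members and 2170 to 3887 genes called, with log2 values of -0.0737 to 0.48 for Cdkn1a, -0.0132 to 0.24 for Cdkn1b, 0.49 to 1.73 for Cdkn2c and 0.28 to 0.93 for Cdkn2d. For hypoxia against normoxia in WT, leaving out each library gave 1 to 3 members and 2124 to 5270 genes called, with log2 values of 1.12 to 1.46 for Cdkn1a, 0.45 to 0.71 for Cdkn1b, -1.66 to -1.16 for Cdkn2c and -0.31 to 0.31 for Cdkn2d. For hypoxia against normoxia in FIH-KO, leaving out each library gave 0 to 2 members and 1097 to 2604 genes called, with log2 values of 0.29 to 0.85 for Cdkn1a, 0.091 to 0.63 for Cdkn1b, -1.28 to -0.0496 for Cdkn2c and -0.0118 to 0.56 for Cdkn2d. For the difference of the FIH-KO effect between oxygen levels, leaving out each library gave 0 to 0 members and 0 to 39 genes called, with log2 values of -0.99 to -0.47 for Cdkn1a, -0.48 to 0.0579 for Cdkn1b, 0.12 to 1.39 for Cdkn2c and -0.0528 to 0.60 for Cdkn2d. The causes of changes with a left-out library were not tested.

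Mean TPM with the longest transcript in place of the union of exons was 49.0 for Cdkn1b and 47.7 for Cdkn2d in WT normoxia, and the order of the members was the same in each group. The tested members had 137 counts or more in every library, and what depth limits was not tested beyond the limits given for 0 counts.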
